A study of Mus musculus with 12 samples.

Results

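The genes described here are the D-type cyclins, which switch on the kinases of early G1 phase, the Cdk inhibitors that hold those kinases back, and cyclin G1. The members were chosen by name: Ccnd1, Ccnd2 and Ccnd3 (D-type cyclins), Cdkn1a and Cdkn1b (CIP/KIP inhibitors), Cdkn2a, Cdkn2b and Cdkn2c (INK4 inhibitors) and Ccng1 (a G cyclin). All non-control probes whose accession is that of a member were taken, which gave 12 probes for 8 of the 9 listed genes, out of 31759 genes on the array. An accession without a gene symbol is counted as a gene of its own, and 15557 of the 20875 genes tested have a symbol. Ccnd1 was not analysed here. Each of the 8 genes was among the 20875 tested, and each of its probes was well above background on all 12 arrays.

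A D-type cyclin binds Cdk4 or Cdk6, and the pair phosphorylates the retinoblastoma protein, which then releases the E2F factors that start DNA replication. INK4 inhibitors bind Cdk4 and Cdk6 themselves and keep the cyclin away, whereas CIP/KIP inhibitors act mainly on Cdk2 complexes and also help to assemble cyclin D complexes. Mouse embryonic stem cells are known for a short G1 phase and low cyclin D activity, and G1 lengthens as they differentiate.

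Gene expression was measured as the brightness of Cy3-labelled cRNA, made from total RNA, on one-colour Agilent arrays. The arrays fall into 3 groups of 4: stem cells (mESC), cells at day 9 and cells at day 14. Differentiation took place on a coating of crosslinked elastin-like polypeptide (ELP), a protein polymer modelled on elastin, with no genetic change or added agent named in the labels. All samples are labelled embryonic stem cells and carry the same growth text, which gives a medium free of LIF (a cytokine that maintains pluripotency in the mouse) and then a medium with serum replacement, and the title of the series names cardiac differentiation. The strain, the line and the day on which the mESC samples were taken are not given in the sources used here, nor whether the replicates came from separate cultures. P-values therefore cover only the spread between these arrays, which may be technical.

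Each array's 75th percentile of signal lay within 345.9 to 386.2 for mESC, within 395.1 to 438.4 for day 9 and within 463.4 to 507.7 for day 14. A level here is the log2 signal of a probe minus the log2 of that percentile, so that 0 is the percentile itself and a step of 1 is a 2-fold change. Levels of different probes are not set against each other. A gene is called higher or lower where its adjusted p is below 0.05 and it differs by 2-fold or more. The slide and the scan are different for each group, and their effect cannot be told apart from that of the group. The summed level of 6 pluripotency markers was 217 to 231 times the percentile in mESC, 2.65 to 3.90 times at day 9 and 1.38 to 1.72 times at day 14, and that of 6 cardiomyocyte markers was 3.65 to 4.18, 157 to 292 and 150 to 194 times. These are whole cultures, and fewer cells of a type and less RNA per cell cannot be told apart in them.

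Cyclin D2 had the largest change of the 8 genes: its RNA was 81.0 times as high at day 9 and 97.8 times as high at day 14 as in mESC. The inhibitors did not move as one. Cdkn1b rose at both days, Cdkn1a fell at day 9, and Cdkn2b and Cdkn2c were called higher at day 14 against either earlier group. At day 9 against mESC, 2 members were called higher (Ccnd2 and Cdkn1b) and 1 lower (Cdkn1a), while 41.0% of all 20875 tested genes were called, 4179 higher and 4386 lower. At day 14 against mESC, 4 of the 8 were called higher (Ccnd2, Cdkn1b, Cdkn2b and Cdkn2c) and 0 lower, beside 46.9% of all genes, 22.8% higher and 24.1% lower. Between the days, 3 were higher at day 14 than at day 9 (Cdkn2a, Cdkn2b and Cdkn2c) and 0 were lower, beside 13.8% of all genes, 10.2% higher and 3.61% lower. The median log2 fold change of the 8 members was 0.55, 1.02 and 0.28 in these comparisons, and that of all tested genes was -0.16, -0.19 and -0.09. The comparisons share arrays, the mESC arrays being the base of the first and the second.

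**Figure D1:**
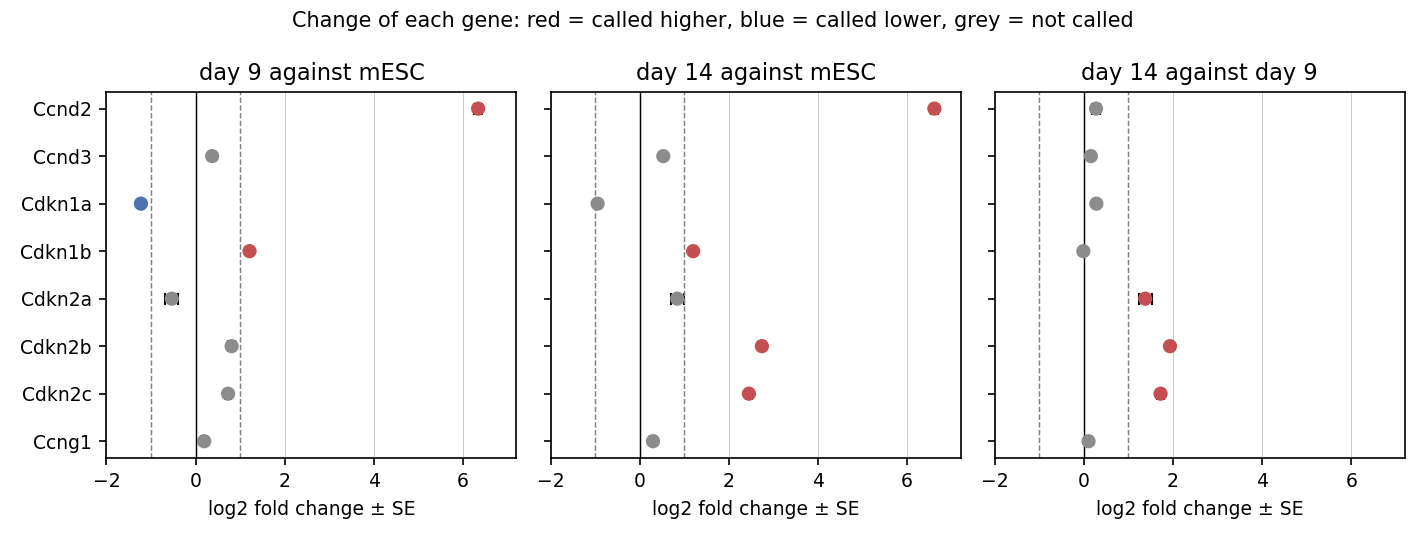
Log2 fold change of each of the 8 genes with its standard error in the 3 comparisons; dashed lines mark a change of 1 on the log2 scale, red is called higher, blue called lower and grey not called. Ccnd2 stands at 6.34 and 6.61 against mESC, and the 3 INK4 genes are the ones called between day 14 and day 9.

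Ccnd2, the D-type cyclin known for responding to mitogens and to Myc, was lowest in stem cells. Its 4 mESC arrays had levels of -2.15, -2.17, -2.22 and -2.23. The day 9 arrays had 4.02, 4.28, 4.11 and 4.18, and the day 14 arrays had 4.35, 4.50, 4.23 and 4.60. The lowest day 9 array lay 6.17 log2 units above the highest mESC array and the lowest day 14 array 6.38 units above it, whereas the day groups overlapped each other. The log2 fold change was 6.34 ± 0.08 (SE) at day 9 against mESC (adjusted p = 7.92e-14) and 6.61 ± 0.08 at day 14 against mESC (adjusted p = 5.24e-14). At day 14 against day 9 it was 0.27 ± 0.08 and was not called. Under other ways of processing, the log2 fold change of Ccnd2 against mESC was as low as 5.44 at day 9 and 5.59 at day 14. The 3 probes of Ccnd2 gave between 6.09 and 6.58 at day 9 and between 6.40 and 6.84 at day 14, so that all of them were called higher. One of them had a single mESC array, replicate 3, at -3.68, with the next lowest at -2.18.

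Ccnd3, the D-type cyclin best known in lymphoid cells and in maturing muscle, was already bright in stem cells. Its levels were 3.51, 3.40, 3.48 and 3.43 in mESC, 3.95, 3.68, 3.77 and 3.90 at day 9, and 3.98, 4.04, 3.98 and 3.93 at day 14. The arrays of both days lay above all mESC arrays and overlapped each other. The log2 fold change was 0.37 ± 0.06 at day 9 and 0.53 ± 0.06 at day 14 against mESC, with adjusted p of 1.21e-04 and 5.44e-06, and neither reached a 2-fold change. At day 14 against day 9 it was 0.16 ± 0.06, and -0.03 when arrays were scaled on the median. Within each array Ccnd2 changed against Ccnd3 by 5.97 at day 9 and by 6.08 at day 14 against mESC (exact two-sided permutation test, p = 0.0286 for each, adjusted p = 0.0390 over 15 such tests). That p is the smallest that 4 arrays against 4 allow. Between day 14 and day 9 the difference between the 2 cyclins moved by 0.12, and the groups overlapped (exact p = 0.457).

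**Figure D2:**
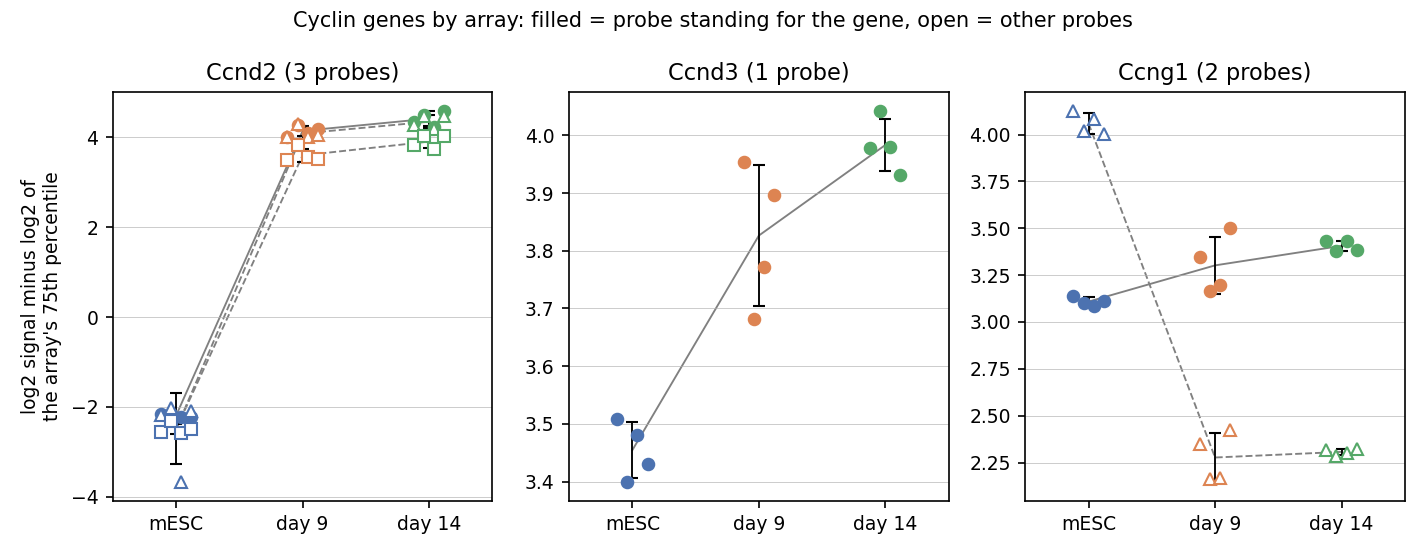
Level of each cyclin probe on each array (log2 signal minus log2 of the array's 75th percentile), by group, with the mean and SD over 4 arrays; filled symbols show the probe chosen for the gene and open symbols its other probes, and each panel has its own scale. The 3 Ccnd2 probes move together, while the 2 Ccng1 probes part: the open one falls by 1.78 on the log2 scale at day 9 against mESC and the filled one stands 0.19 higher.

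Ccng1 encodes cyclin G1, a target of p53 that recruits a phosphatase to Mdm2 and does not drive G1 itself. The probe that stands for the gene had levels of 3.14, 3.10, 3.08 and 3.11 in mESC, 3.35, 3.16, 3.20 and 3.50 at day 9, and 3.43, 3.38, 3.43 and 3.38 at day 14. The mESC arrays lay below all others by this probe. Its log2 fold change was 0.19 ± 0.07 at day 9 and 0.30 ± 0.07 at day 14 against mESC, and 0.10 ± 0.07 at day 14 against day 9 and none of these was called. With arrays scaled on the median it was -0.02 at day 14 against mESC and -0.09 at day 14 against day 9. The other Ccng1 probe had 4.13, 4.02, 4.08 and 4.00 in mESC, 2.35, 2.16, 2.17 and 2.43 at day 9, and 2.32, 2.29, 2.30 and 2.32 at day 14. By that probe the mESC arrays lay above all others. Its log2 fold change was -1.78 ± 0.06 at day 9 (adjusted p = 1.49e-10 over all tested probes) and -1.75 ± 0.06 at day 14 (adjusted p = 1.36e-10) against mESC, which would be a call in the lower direction. Both probes carry the same transcript accession, and within the array their difference moved by 1.97 at day 9 and 2.05 at day 14 against mESC, with no overlap between groups. No direction for Ccng1 can be given from these arrays.

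Cdkn1a encodes p21, the CIP/KIP inhibitor through which p53 halts the cycle. Its levels were 3.02, 2.83, 2.92 and 2.94 in mESC, 1.76, 1.73, 1.71 and 1.60 at day 9, and 1.93, 2.04, 1.97 and 1.98 at day 14. The mESC arrays were the highest, the day 9 arrays the lowest, and no 2 groups overlapped. At day 9 against mESC it fell by 1.23 ± 0.05 on the log2 scale (SE, adjusted p = 9.28e-10), to 2.34-fold lower. At day 14 against mESC the log2 fold change was -0.95 ± 0.05 (adjusted p = 7.72e-09), or 1.93-fold lower, which is short of the fold a call needs, and it passed with median scaling (-1.27) and with normexp background correction (-1.003). At day 14 against day 9 the log2 fold change was 0.28 ± 0.05, which was not called.

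Cdkn1b encodes p27, the CIP/KIP inhibitor known for rising as cells leave the cycle, largely through slower breakdown of the protein. By the probe that stands for it, levels were -1.26, -1.47, -1.35 and -1.40 in mESC, -0.18, -0.18, -0.10 and -0.18 at day 9, and -0.25, -0.19, -0.15 and -0.09 at day 14. All 8 arrays of the days lay above all mESC arrays, and the days overlapped. The log2 fold change was 1.21 ± 0.05 at day 9 (adjusted p = 1.13e-09) and 1.20 ± 0.05 at day 14 (adjusted p = 1.00e-09) against mESC, and -0.01 ± 0.05 at day 14 against day 9. The other Cdkn1b probe gave 0.91 ± 0.05 and 0.93 ± 0.05 against mESC, and normexp background correction gave 0.89 and 0.90, in the same direction but not called. With median scaling the day 14 value was 0.88 and was not called either.

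The genes of p21 and p27 moved in opposite directions at day 9 against mESC. Within each array Cdkn1a changed against Cdkn1b by -2.44 at day 9 and by -2.14 at day 14 against mESC (exact two-sided permutation test, p = 0.0286 for each, adjusted p = 0.0390). Between day 14 and day 9 the same difference moved by 0.29 with the same p, and by 0.15 with normexp background correction (adjusted p = 0.306).

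Because Cdkn1a and Ccng1 are textbook targets of p53, the sequence before their start sites is shown with the p53 response element in capitals. The windows are the 250 bases before a RefSeq start site (GRCm38.p6), 5′ to 3′ on the strand of the gene. An element is a pair of adjacent p53 half-sites on either strand with 1 mismatch allowed, a search chosen with known sites in mind.
Cdkn1a, chr17:29090729-29090978, plus strand, the upstream of its start sites: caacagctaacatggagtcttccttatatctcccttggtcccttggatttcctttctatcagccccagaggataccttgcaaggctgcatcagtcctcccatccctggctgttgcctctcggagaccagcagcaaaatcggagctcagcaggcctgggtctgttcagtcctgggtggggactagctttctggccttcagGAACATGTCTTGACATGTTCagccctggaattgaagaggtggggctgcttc
Ccng1, chr11:40755287-40755536, minus strand: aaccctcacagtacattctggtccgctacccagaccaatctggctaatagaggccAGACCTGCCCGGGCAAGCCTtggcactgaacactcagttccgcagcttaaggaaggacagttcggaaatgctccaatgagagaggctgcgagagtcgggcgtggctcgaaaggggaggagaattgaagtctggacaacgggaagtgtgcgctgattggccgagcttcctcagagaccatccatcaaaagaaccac
The Cdkn1a element, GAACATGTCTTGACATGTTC, spans positions -51 to -32 from that start site, and the Ccng1 element, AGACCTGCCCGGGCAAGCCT, spans positions -195 to -176 from its own. Of the 11 member windows in the table, which belong to 7 of the genes, these 2 held an element, against 25 of all 32851 windows (0.0761%). A match of letters is a description and does not show that the site was bound. The other start site of Cdkn1a held no p53 element.

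The 3 INK4 genes were the members called between the days. Cdkn2b encodes p15, known as a target of TGF-beta signalling. Its levels were 0.51, 0.42, 0.56 and 0.45 in mESC, 1.39, 1.24, 1.09 and 1.46 at day 9, and 3.24, 3.18, 3.27 and 3.22 at day 14. The 3 groups were in that order with no overlap. The log2 fold change was 0.81 ± 0.07 at day 9 against mESC, which was not called, 2.74 ± 0.07 at day 14 against mESC (adjusted p = 1.46e-11) and 1.93 ± 0.07 at day 14 against day 9 (adjusted p = 3.01e-09). In linear terms it was 6.68 times as high at day 14 as in mESC.

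Cdkn2c encodes p18, the INK4 inhibitor known for acting in the last divisions of differentiating precursors. Its levels were -1.90, -1.84, -1.81 and -1.87 in mESC, -1.02, -1.36, -1.14 and -0.98 at day 9, and 0.57, 0.66, 0.55 and 0.59 at day 14. Again the groups stood apart in the order of the days. The log2 fold change was 0.73 ± 0.07 at day 9 against mESC, not called, 2.45 ± 0.07 at day 14 against mESC (adjusted p = 3.63e-11) and 1.72 ± 0.07 at day 14 against day 9 (adjusted p = 7.83e-09). Cdkn2b and Cdkn2c had a Pearson correlation of 0.996 over the 12 arrays, which fall into 3 groups and share the scaling. The change of Cdkn2b exceeded that of Cdkn2c by 0.29 at day 14 against mESC (exact p = 0.0286, adjusted p = 0.0390), and without mESC replicate 2 by 0.26 with an adjusted p of 0.0714. It exceeded it by 0.08 at day 9 against mESC (exact p = 0.371) and by 0.21 at day 14 against day 9 (exact p = 0.0571, adjusted p = 0.0714), where the groups overlapped.

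Cdkn2a encodes p16Ink4a and p19Arf from transcripts that share exons, and which of them its single probe reads was not tested. Its levels were -0.49, -0.75, -0.91 and -0.35 in mESC, -0.78, -1.29, -1.20 and -1.37 at day 9, and 0.25, 0.25, 0.32 and 0.04 at day 14. The day 14 arrays lay above all others, and the mESC and day 9 arrays overlapped. The SD over the arrays of this gene was 0.25 in mESC, 0.26 at day 9 and 0.12 at day 14. The log2 fold change was -0.53 ± 0.15 at day 9 and 0.84 ± 0.15 at day 14 against mESC, neither called, and 1.38 ± 0.15 at day 14 against day 9 (adjusted p = 1.02e-05). Cdkn2a lies beside Cdkn2b in the genome, and the neighbours differed: within the array Cdkn2a changed against Cdkn2b by -1.34 at day 9 and -1.90 at day 14 against mESC (exact two-sided permutation test, adjusted p = 0.0390 for each). Against Cdkn2c it changed by -1.26 and -1.61 in the same comparisons, with the same adjusted p. Between day 14 and day 9 the difference of Cdkn2a from Cdkn2b moved by -0.56 (adjusted p = 0.0390) and that from Cdkn2c by -0.35 (exact p = 0.0857, adjusted p = 0.0989). Without any 1 of the day 14 arrays the difference from Cdkn2b missed the threshold, at -0.58 to -0.50, with adjusted p of 0.0714 to 0.0779, and without day 9 replicate 4 the difference from Cdkn2c passed it, at -0.46.

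**Figure D3:**
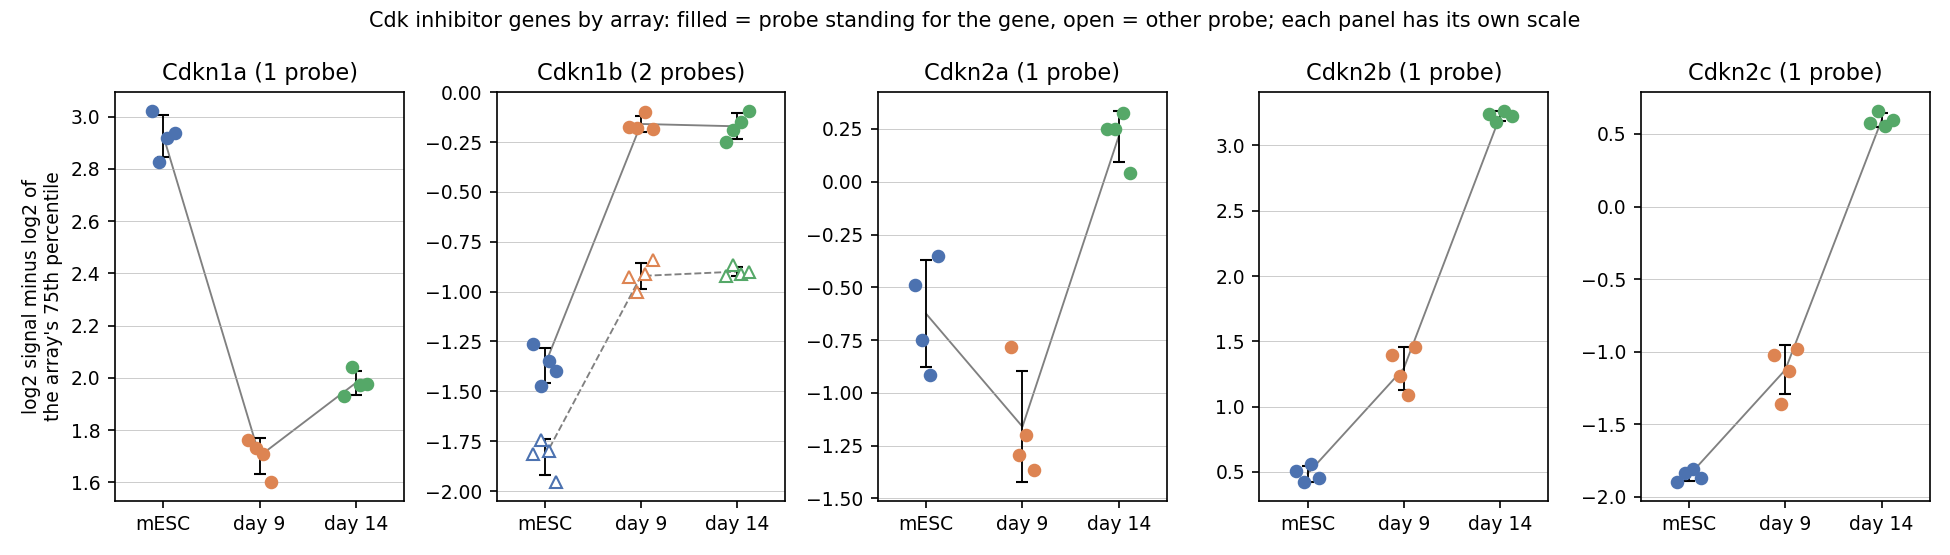
Level of each inhibitor probe on each array (log2 signal minus log2 of the array's 75th percentile), by group, with the mean and SD over 4 arrays; filled symbols are the probe that stands for the gene, open triangles the other Cdkn1b probe, and each panel has its own scale. Cdkn1a is highest in mESC, Cdkn1b is at one level on both days, and the 3 INK4 genes are highest at day 14.

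Since Cdkn2b and Cdkn2c changed alike, the 250 bases before a start site of each are shown, from the same table, with GC boxes (GGGCGG or its reverse complement CCGCCC, the site of Sp1-type factors) in capitals.
Cdkn2b, chr4:89311033-89311282, minus strand: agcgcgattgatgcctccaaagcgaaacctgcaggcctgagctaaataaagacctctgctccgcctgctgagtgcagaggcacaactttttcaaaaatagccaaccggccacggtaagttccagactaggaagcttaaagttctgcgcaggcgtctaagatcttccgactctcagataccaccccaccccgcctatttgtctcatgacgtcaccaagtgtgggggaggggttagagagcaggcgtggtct
Cdkn2c, chr4:109666757-109667006, minus strand, the upstream of its start sites: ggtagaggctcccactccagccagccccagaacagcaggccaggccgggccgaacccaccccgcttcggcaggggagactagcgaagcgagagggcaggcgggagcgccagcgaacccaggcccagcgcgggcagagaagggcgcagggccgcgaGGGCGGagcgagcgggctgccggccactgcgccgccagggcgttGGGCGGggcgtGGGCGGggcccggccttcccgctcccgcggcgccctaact
The Cdkn2c window holds 3 GC boxes and is 77.2% G or C, and the Cdkn2b window holds none of these letters and is 53.6% G or C. The other Cdkn2c window in the table, at chr4:109665373-109665622, holds no GC box either and is 42.8% G or C. A GC box was found in 6 of the 11 member windows and in 32.7% of all windows. None of the 11 held the E-box CACGTG (6.02% of all windows), the E2F site TTTCGCGC or TTTGGCGC (0.654%) or the TATA box TATAAA (12.4%), each searched on both strands. These letters were looked for only in these windows, and their absence says nothing of a factor.

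The rise of the 3 INK4 members at day 14 against day 9 went with changes in cell type markers. Cdkn2d, an INK4 gene outside the members, stood at -0.16 ± 0.11 in that comparison and was not called. Summed over 5 macrophage markers, the level was 0.0423 to 0.0612 times the 75th percentile in mESC, with 4 of the 5 below background on all arrays, 0.195 to 0.286 times at day 9, with 2 of 5 below background, and 14.5 to 18.3 times at day 14, where all 5 were called higher than at day 9. That of 6 fibroblast markers was 0.608 to 0.658, 163 to 283 and 354 to 398 times, and that of 4 markers of visceral endoderm and liver 0.0337 to 0.0761, 33.8 to 54.9 and 170 to 181 times. Of the 6 fibroblast markers 2 were called higher and 1 lower at day 14 against day 9, and 2 of the 4 of visceral endoderm and liver were called higher and 0 lower. Of 4 endothelial markers 3 were called lower and 0 higher between the days, and of 6 cardiomyocyte markers 2 lower and 0 higher. Of 4 smooth muscle markers 1 was called higher and 0 lower. Among all tested genes 10.2% were called higher and 3.61% lower. The part of these cell types in the INK4 result was not tested. The 6 markers of proliferating cells had a summed level of 104 to 107 times the percentile in mESC, 62.4 to 66.6 at day 9 and 52.0 to 55.5 at day 14. Of these, 3 were called lower at day 9 and 4 at day 14 against mESC, and 0 higher. Among all 20875 tested genes 4386 and 5033 were called lower in those comparisons. Mki67, chosen after its values were seen, stood at 0.25 ± 0.06 and 0.26 ± 0.06 and was not called. At day 14 against day 9, 0 of the 6 were called in either direction.

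Among 26 tested partners of the D-type cyclins in G1 and S phase (kinases, E-type cyclins, the retinoblastoma family, E2F factors and licensing factors), 4 were called higher and 7 lower at day 9 against mESC, and 1 higher and 10 lower at day 14, beside 41.0% and 46.9% of all genes called in either direction. The median log2 fold change of the list was -0.23 at day 9 and -0.61 at day 14 against mESC, beside -0.16 and -0.19 over all tested genes. Cdk4, the kinase partner of all D-type cyclins, stood at 0.26 ± 0.06 at day 9 and -0.06 ± 0.06 at day 14 against mESC and was not called. Rb1, the retinoblastoma gene, stood at -0.47 ± 0.06 and -0.21 ± 0.06, also not called. Cdk6, the other kinase partner, was lower by the probe that stands for it: levels were 0.47, 0.30, 0.48 and 0.39 in mESC, -3.65, -2.95, -3.27 and -3.62 at day 9, and -2.36, -2.38, -2.42 and -2.51 at day 14. That is a log2 fold change of -3.78 ± 0.13 at day 9 and -2.83 ± 0.13 at day 14, but the other Cdk6 probe gave -0.58 and 0.63 and was not called. Cdt1, which licenses replication origins, fell by 1.27 ± 0.05 on the log2 scale at day 9 and by 1.54 ± 0.05 at day 14. Its partner Cdc6 fell by 1.23 ± 0.05 and by 2.15 ± 0.05, with a second probe at 0.32 and -1.01. Tfdp2, a dimer partner of E2F factors, fell by 1.98 ± 0.06 and by 1.93 ± 0.06, and its second probe stood at -0.83 at day 9.

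Of 6 other Cdk inhibitors and G-type cyclins, 2 were called higher at day 9 and 3 at day 14 against mESC, and 0 lower. The share of all tested genes called in either direction was 41.0% and 46.9%. Median log2 fold changes of the 6 were 0.75 and 0.91, beside -0.16 and -0.19 over all tested genes. Cdkn1c, which encodes p57, the third CIP/KIP inhibitor and an imprinted gene, had levels of -1.56, -1.84, -1.76 and -2.02 in mESC, 4.51, 4.16, 4.43 and 4.48 at day 9, and 5.06, 5.16, 5.19 and 4.95 at day 14. No groups overlapped, and the gene rose by 6.19 ± 0.11 at day 9 and by 6.89 ± 0.11 at day 14 on the log2 scale against mESC, more than any of the 5 inhibitors among the members. Ccng2, cyclin G2, rose by 1.10 ± 0.10 and 1.46 ± 0.10. Cables1, an adaptor that links kinases to Cdks, stood at 0.98 ± 0.14 at day 9 and rose by 1.51 ± 0.14 at day 14. Cdkn2d, which encodes p19Ink4d, stood at 0.52 ± 0.11 and 0.36 ± 0.11 and was not called.

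Of 24 genes of the p53 pathway, which controls Cdkn1a and Ccng1, 1 was called higher and 11 lower at day 9 against mESC, and 2 higher and 11 lower at day 14. Of all 20875 tested genes 41.0% were called at day 9 (4179 higher and 4386 lower) and 46.9% at day 14 (22.8% higher and 24.1% lower). The median log2 fold change of this list was -0.97 at day 9 and -0.90 at day 14, further below 0 than the -0.16 and -0.19 of all tested genes. Between the days 0 of the 24 were called, beside 13.8% of all genes. One gene, Fbxw7, a ligase subunit for cyclin E, is on this list and on that of the partners. Tigar, a regulator of glycolysis, fell by 4.48 ± 0.09 at day 9 and by 4.94 ± 0.09 at day 14 on the log2 scale, and both of its probes were called lower. Trp53inp1 fell by 1.47 ± 0.05 and 1.70 ± 0.05, and Pmaip1, which encodes the death protein Noxa, by 1.94 ± 0.08 and 1.73 ± 0.08. Mdm2, the ligase that degrades p53, fell by 1.07 ± 0.04 and 1.23 ± 0.04. Fas, the death receptor, rose by 4.52 ± 0.24 and 4.20 ± 0.24, and its other probe by 3.77 and 2.96. Trp53 itself fell by 1.24 ± 0.08 and 1.55 ± 0.08 by the probe that stands for it, while its other probe stood at -0.07 and 0.01.

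Of 24 regulators upstream of D-type cyclins and inhibitors, 9 were called higher and 4 lower at day 9 against mESC, and 10 higher and 6 lower at day 14. Among all tested genes 41.0% and 46.9% were called in either direction. The list had median log2 fold changes of 0.50 and 0.36, beside -0.16 and -0.19 over all tested genes. Those called lower at both days included Cbx7 (-2.95 ± 0.05 and -3.90 ± 0.05) and Klf4 (-3.85 ± 0.07 and -3.16 ± 0.07), chosen after their values were seen. Id1, Id2 and Id3 encode partners that block basic helix-loop-helix factors, and each was called higher at both days. Id3 rose by 6.46 ± 0.13 at day 9 and by 6.57 ± 0.13 at day 14 against mESC, Id2 by 6.36 ± 0.12 and 5.79 ± 0.12, and Id1 by 4.81 ± 0.14 and 5.06 ± 0.14. Jun, a part of the AP-1 factor, rose by 4.84 ± 0.05 and 4.59 ± 0.05. Myc, known to act on Ccnd2 and against Cdkn1a and Cdkn2b, had levels of -3.28, -3.05, -3.30 and -2.93 in mESC, 0.72, 0.94, 0.72 and 0.95 at day 9, and 0.49, 0.56, 0.53 and 0.70 at day 14. It rose by 3.97 ± 0.09 at day 9 and by 3.71 ± 0.09 at day 14, and all 3 of its probes were called higher. The 3 Myc probes gave between 2.10 and 3.97 at day 9 and between 1.74 and 3.71 at day 14.

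**Figure D4:**
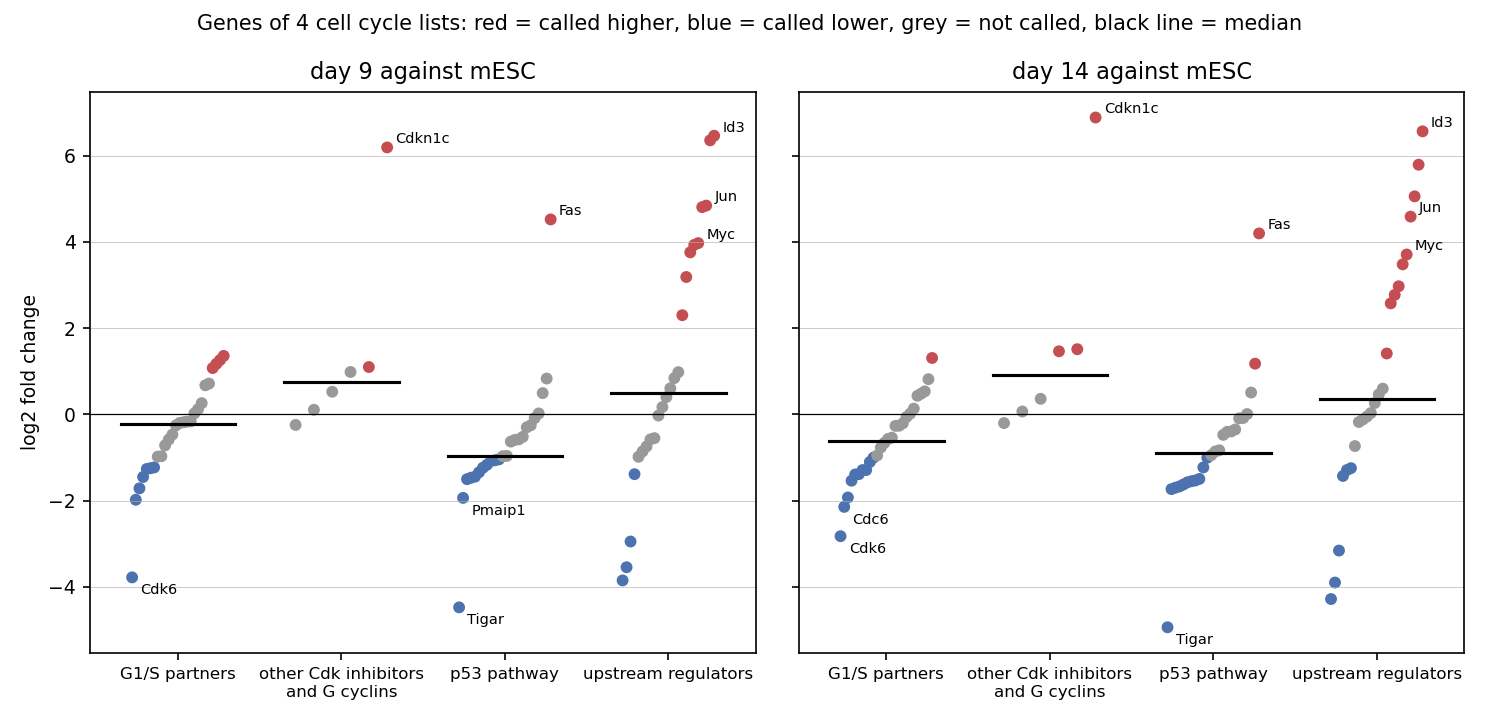
Log2 fold change of every tested gene of the 4 lists at day 9 (left) and at day 14 (right) against mESC; red is called higher, blue called lower, grey not called, and the black line is the median of the list. The p53 pathway list has its median at -0.97 and -0.90, with 11 of 24 genes called lower on either day (4386 and 5033 of all 20875 tested genes). Cdkn1c stands apart at 6.19 and 6.89.

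Between day 14 and day 9, 1 of the 26 partners was called higher and 1 lower, 0 of the 6 other inhibitors and G-type cyclins were called, and 1 of the 24 upstream regulators was called higher and 1 lower, beside 13.8% of all genes in either direction. These counts moved with the processing: 0 partners were called with normexp background correction and 4 with the mean over probes, and 4 regulators (1 higher and 3 lower) with median scaling. They were Rbl2 (1.19 ± 0.07) and Skp2 (-1.06 ± 0.06) of the partners and Fos (1.73 ± 0.11) and Ets1 (-1.16 ± 0.09) of the regulators, which are named because the counts are small and were chosen after their values were seen. Rbl2 encodes p130, the retinoblastoma relative of resting cells, and Skp2 the ligase subunit that marks p27 for breakdown.

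The pattern of each member over the 12 arrays was set beside 13152 other named genes by Pearson correlation, over arrays that fall into 3 groups and share their scaling. Genes with only a provisional name were left out, as were genes below background on all arrays of any group. Genes below background on all mESC arrays were thus not candidates. Myl9, a light chain of smooth muscle and non-muscle myosin, was most like Ccnd2 (r = 0.9996) and changed by 8.61 and 8.99 at day 9 and day 14 against mESC, and Tmx4 came next (r = 0.9993). Itga11, a collagen-binding integrin chain of fibroblasts, was most like Cdkn2b (r = 0.998) with changes of 1.36 and 4.19, followed by St3gal1 (r = 0.997). Prdx5 (r = 0.998) and Gxylt2 (r = 0.998) were most like Cdkn2c. Selenow and Nt5m were most like Cdkn1b (r = 0.997 for each), Tulp3 and Fam234b most like Cdkn1a (r = 0.996 for each), and Sun2 and Cdc42ep2 most like Ccnd3 (r = 0.991 and 0.992). The likeness was weakest for Cdkn2a (Acadsb and Ucp2, r = 0.972 for each) and for Ccng1 (Cdk19, r = 0.965, and Arhgap23, r = 0.963).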

How the data were processed

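Total RNA of 12 samples (4 mESC, 4 day 9 and 4 day 14) was read on one-colour arrays with 45018 spots. Agilent Feature Extraction 12.0.3.1 processed the arrays one by one, per the file headers, and made the deposited processed signal, an intensity after background subtraction and detrending that is linear and not scaled between arrays. The submitters' processing notes name version 12. The median signal and its local background are deposited as uncorrected intensities, per the file headers, and the other deposited columns used are flags of 0 or 1 for spots well above background, saturated or outlying. The deposited series table repeats these intensity values with 0 differences, and no spot was saturated.

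Control spots and outlier spots were left out, spots of a probe were averaged, and log2 signals were reduced by the 75th percentile of the array. Probes were named by RefSeq accession (28223 of 41174 probes, 12951 not named here). A probe entered the test if 3 or more arrays of any group had it well above background, and the probe of highest mean represents its gene. The array's grid is annotated to mm9, and no position is taken from it. Groups were compared with limma 3.58.1 in R 4.3.3 over all 12 arrays, two-sided, with Benjamini-Hochberg adjustment over 20875 genes. The fit was also run on simulated data with independent noise and no slide effect, which cannot speak to the slides. Pairs of members were compared within arrays by exact permutation, 5 pairs in 3 comparisons and 15 tests, since pairs with Ccnd1 could not be formed. Likewise 6 differences between probes of 1 gene were computed after seeing the data, and no p is given for them.

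The members and lists were chosen with earlier results of these data known. Genes named are the members, up to 4 called genes of each list with the largest change at day 14 against mESC, 8 key genes whatever their call, and the 2 genes most like each member. Other list genes are named only where the text says that they were chosen after their values were seen. Alternatives were normexp background correction (offset 50, on the median signal, as no mean signal was given), quantile and median scaling, starting from the series table, testing every probe or only those above background on all arrays, averaging the probes of a gene, fitting only the 8 arrays compared, robust variances with a trend, a replicate block, and leaving out each array. The same alternatives for the lists were added after seeing the data.

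Arrays of a group correlated at 0.989 or more. Replicate numbers recur in each group, but deviations from the group means of arrays with the same number correlated at only -0.0751 to 0.184, so the numbers were not taken as pairs. Promoter windows are from RefSeq (GRCm38.p6). The number of arrays limits the precision.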

Additional observations from a re-analysis of the deposited data

Results flagged for a closer look

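In each group of 4 arrays the highest and lowest level of every member probe was set against its nearest neighbour, and 3 of 36 groups held an array far from the others by Dixon's criterion, which chance meets in about 1 group of 20. A Ccnd2 probe that does not stand for the gene had mESC replicate 3 at -3.68, with the next array at -2.18. The same Ccnd2 probe had day 9 replicate 2 at 4.29, with the next at 4.04. The Cdkn1b probe that stands for its gene had day 9 replicate 3 at -0.098, with the next at -0.18. Leaving out any of these arrays changed no call of Ccnd2 or Cdkn1b by the probe that stands for the gene. The flagged Ccnd2 probe is not that probe and was not fitted without these arrays, so its own values were not checked in this way.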

How the results depend on the processing

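Of 540 values of the members under the alternatives 520 kept their direction and their side of the threshold. The number of members called stayed 3, 4 and 3 with each array left out. Many of the 540 had a fixed log2 fold change, so that 520 overstates the robustness. That fold change could not move with the series table, either probe filter, only the arrays compared, robust variances with a trend or the replicate block. Nor could it move where the array left out was outside the comparison. At most the adjusted p could change in these settings. The calls of Ccnd2, Cdkn2a, Cdkn2b and Cdkn2c held under every alternative run. Cdkn1b lost its call with normexp background correction (0.89 at day 9 and 0.90 at day 14 against mESC), with its other probe (0.91 and 0.93) and, at day 14, with median scaling (0.88). Cdkn1a gained a call at day 14 against mESC with normexp (-1.003) and median scaling (-1.27). Ccng1 reversed with the mean over probes (-0.79 at day 9 and -0.73 at day 14), with its other probe (-1.78 and -1.75) and with median scaling (-0.022 at day 14 against mESC and -0.086 at day 14 against day 9). Ccnd3 reversed at day 14 against day 9 with median scaling (-0.034). Cdkn1b at day 14 against day 9, near 0, reversed with normexp (0.0098), quantile normalization (0.015), the mean over probes (0.0051), its other probe (0.022) and single arrays left out (-0.038 to 0.014). The cause of these shifts was not tested.

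Differences between members at day 14 against day 9 lost their side of the threshold with normexp for Cdkn1a and Cdkn1b (0.15) and for Cdkn2a and Cdkn2b (-0.62). With single arrays left out the pair of Cdkn2a and Cdkn2b ranged over -0.68 to -0.46, and Cdkn2a and Cdkn2c over -0.46 to -0.25. Cdkn2b and Cdkn2c came to 0.30 at day 9 with normexp and ranged over 0.26 to 0.33 at day 14 against mESC. With 1 array left out the exact permutation test could still reach p = 0.0286. It did so for Cdkn2a and Cdkn2c without day 9 replicate 4.

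Genes called came to 4802, 5865 and 1231 with normexp and to 5483, 6430 and 1305 with only probes above background on all arrays, where fewer genes were tested, against 8565, 9783 and 2880. Median scaling moved the median log2 fold change of all genes to -0.29, -0.51 and -0.28, and normexp to -0.15, 0.09 and 0.16. The share of calls that were higher was 36.3% with median scaling, against 48.6% as reported, at day 14 against mESC, and 58.9% against 73.8% at day 14 against day 9. Over the other alternatives that keep all arrays it was 39.6% to 50.3% and 67.9% to 79.9%. With the replicate block 8564, 9783 and 2876 genes were called, and no call of a member changed. A slide block could not be fitted. All member probes were well above background on all 12 arrays.

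Of the named list genes, added after seeing the data, Mdm2 (-0.996 with normexp, -0.92 with quantile), Cdt1 (-0.88 with quantile), Ccng2 (0.97 with median scaling), Cdc6 (-0.46 with the mean over probes) and Trp53 (-0.66, and -0.77 at day 14, with the mean over probes) lost calls against mESC. Cables1 gained one at day 9 with quantile normalization (1.12) and with any of 4 single arrays left out (0.89 to 1.12 over all 12). Cdk6 gained one at day 14 against day 9 with the mean over probes (1.08) and without day 9 replicate 2 (1.10), and Cdc6 with median scaling (-1.11) and the mean over probes (-1.12). With normexp 7 partners were called at day 14 against mESC, in place of 11. Between the days 0 partners were called with normexp and 4 with the mean over probes, in place of 2, and 4 regulators with median scaling, in place of 2. With median scaling 1 of the other inhibitors was called at day 9 against mESC, in place of 2.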
